A study of Rattus norvegicus with 54 samples.

Results

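The libraries described here are 21 of 54 rat heart RNA-Seq libraries, called atrium-containing, that held RNA of both atrial and working heart muscle. They were chosen by measured values, as those with at least 100 fpkm of Myl7, the atrial regulatory light chain of myosin, and at least 500 fpkm of Ckm, the muscle creatine kinase. They comprised 6 of the 18 control libraries (C), 7 of the 18 worker libraries (W), and 8 of the 18 libraries of workers with restricted feeding (WRF). All rats were wildtype male Wistar rats that were 7 to 8 weeks old at the start, were housed singly for 5 weeks, and gave 1 heart and 1 library each. C rats were left undisturbed. W rats spent their working days awake in a slowly turning drum during the light phase, with food and water at all times, and WRF rats followed the same schedule but had no food while they worked. Hearts were collected on a free day at 1 of 6 times (ZT, hours after lights on). Atria and ventricles were crushed together, so a library is a mixture of cell types, and fewer cells of a type cannot be told apart from less RNA per cell. The labels name the tissue only as heart, and nothing in them says how much of it was atrium. The question asked is how WRF rats differed from C and W rats as 1 pooled group when the libraries compared all passed both limits and Myl7 was a covariate.

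Atrial and ventricular muscle share most of the contractile apparatus but use different myosin light chains, Myl7 and Myl4 in the atrium and Myl2 and Myl3 in the ventricle. Atrial muscle also secretes natriuretic peptide (Nppa) and uses sarcolipin (Sln) to restrain the calcium pump of the sarcoplasmic reticulum. The vagus nerve acts mainly on the atria and the sinus node, through the muscarinic receptor Chrm2 and the potassium channel that contains Kcnj3. The working heart lives on mitochondrial oxidation, mostly of fatty acids, and its mitochondria carry their own ribosomes.

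Myl7 had a median of 4553 fpkm in the C libraries (143 to 16085), 1686 in the W libraries (225 to 20489), and 4478 in the WRF libraries (674 to 23938). These values, and those of Ckm (981 to 1604 fpkm in C and W, 1274 to 2734 in WRF), selected the libraries and are given as a description. The libraries just inside the Myl7 limit were C28 (143), W9 (225), and WRF45 (674). Those just outside it were WRF5 (96.98), WRF55 (90.6), and W1 (29.1). Of the other libraries, 31 passed the Ckm limit with less than 100 fpkm of Myl7 and are called atrium-poor below (12 C, 11 W, and 8 WRF). The Ckm limit removed 2 WRF libraries, of which WRF62 held 3863 fpkm of Myl7 and so also held atrial RNA. Nppa and Sln were measured as a check of the atrial label. Nppa spanned 379.8 to 28189 fpkm in the C libraries (median 5353), 307 to 30522 in the W libraries (median 2304) and 769.8 to 17981 in the WRF libraries (median 5882). Sln spanned 79.7 to 7371 fpkm in the C libraries (median 1601), 118 to 6305 in the W libraries (median 581) and 232 to 7805 in the WRF libraries (median 1937). Neither passed between WRF and the other groups in the fit with Myl7 (log2 differences of -0.22 and -0.03, adjusted p = 0.329 and 0.869 by limma), and the C, W, and WRF ranges overlapped. Since Myl7 was a covariate there, that fit cannot show whether atrial RNA differed between the groups. Without the Myl7 term the differences were 0.70 and 0.89, and neither passed (limma adjusted p = 0.478 and 0.351).

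Several libraries stood apart. C27 and W17 held 20.05 and 41.4 fpkm of Myl2, against 1354 to 4125 in the other 19 libraries, and had the highest Nppa of all. Neither was a WRF library, and results that change without them are given both ways. W21 held 1027 fpkm of the liver product Alb, against at most 68.7 in the other 20. WRF52, WRF53, and WRF46 held the most Thrsp and Scd, genes of fat synthesis. All 8 WRF libraries were from rats numbered 41 to 53. None of WRF1 to WRF6 met the Myl7 limit, although 6 of the 8 atrium-poor WRF libraries were these. What the runs of rat numbers stand for is not given in the sources used here. The 6 times were spread alike, with 2 or 3 C and W libraries and 1 or 2 WRF libraries at each. The sum of fpkm over all genes was 422356 to 675664 in C and W and 529023 to 749554 in WRF libraries, and the number of genes at 1 fpkm or more was 9728 to 10113 and 9228 to 10015. No counts of reads are in the files, and the sequencing depth that the study reports was not used here. No 2 libraries held identical values.

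**Figure D1:**
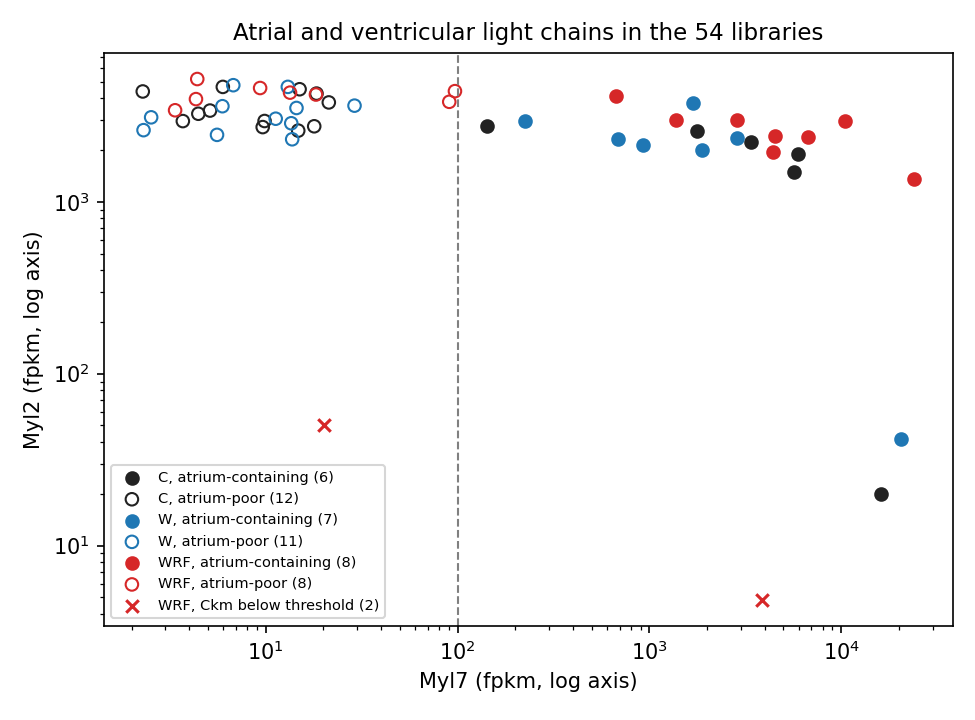
Myl7 against Myl2 in fpkm (both axes logarithmic), 1 point per library, for C (black), W (blue), and WRF (red). Filled points are the 21 libraries described, open points the 31 atrium-poor ones, and crosses the 2 with low Ckm, and the dashed line is the limit of 100 fpkm. C27 and W17 lie alone at the lower right, with 20.05 and 41.4 fpkm of Myl2.

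WRF rats differed from C and W rats in 4843 of 10257 genes, which is 47.2% (limma on log2(fpkm + 1) with log2 Myl7 as a covariate, adjusted p under 0.05). WRF levels were higher for 2114 genes (20.6%) and lower for 2729 (26.6%), and the median log2 difference over all genes was -0.01. Genes for mitochondrial respiration, mitochondrial and cytosolic ribosomes, glycolysis, and the proteasome were often higher in WRF libraries (68 of 72, 64 of 69, 45 of 77, 15 of 23, and 26 of 37 measured genes), and 0 of them were lower. Of 25 genes for autonomic signaling 12 were lower. Of 21 transcription factors whose motifs the study of these rats considered, 13 were lower. Every WRF library lay above every C and W library for 149 genes (1.45%) and below for 346 (3.37%). Without C27 and W17, 4168 genes passed (2010 higher and 2158 lower), and 3894 of them were among the 4843 with the same direction. Between W and C rats of the same libraries 0 genes passed (0%), with 271 at an unadjusted p under 0.05. The p-values measure the spread between these rats.

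**Figure D2:**
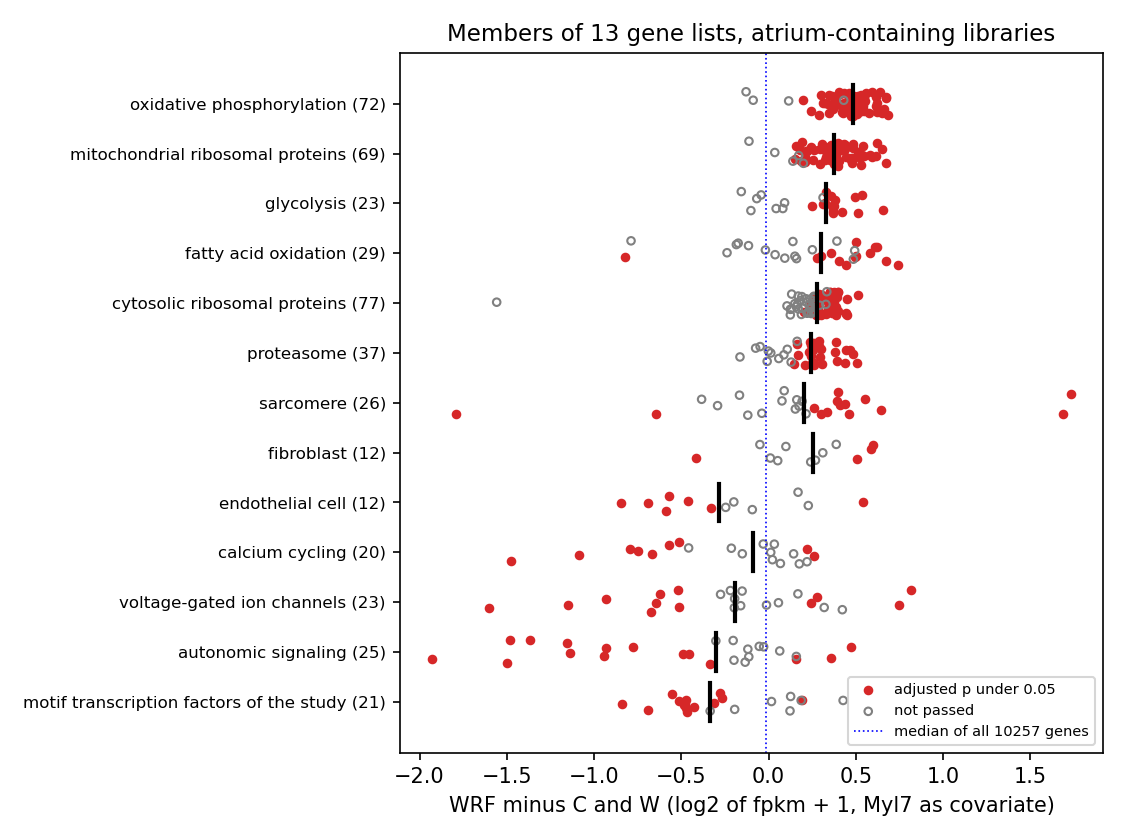
Log2 difference between WRF and the C and W libraries (horizontal axis) for each measured member of 13 gene lists (rows, with the number of members), fitted with Myl7 as a covariate. Red points passed the adjusted p of 0.05, grey ones did not, black bars are list medians, and the dotted line is the median of all genes (-0.01). The upper lists lie to the right of it, up to a median of 0.48, and the lowest lists to the left, down to -0.34.

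The genes that were lowest in WRF rats included regulators of transcription, splicing, translation, and energy use. Prkaa2 encodes the catalytic subunit of the energy sensor AMPK that predominates in muscle. It ranged from 12.3 to 25.4 fpkm in the C libraries (median 17.7), 7.87 to 19.7 in the W libraries (median 16.1) and 1.24 to 5.31 in the WRF libraries (median 3.05). The WRF range lay wholly below the others, and the log2 difference was -2.03 (SE 0.19, limma adjusted p = 3.81e-07). Tbx20, a T-box transcription factor of heart muscle, ranged from 8.97 to 22.2 fpkm in the C libraries (median 10.8), 7.26 to 14.6 in the W libraries (median 8.62) and 0.728 to 4.51 in the WRF libraries (median 2.57). Again no WRF library reached the lowest C or W library, with a log2 difference of -1.94 (SE 0.20, limma adjusted p = 6.89e-07). Mbnl1, a regulator of alternative splicing that is best known from myotonic dystrophy, ranged from 14.8 to 25.4 fpkm in the C libraries (median 19.1), 11.3 to 16.8 in the W libraries (median 16.3) and 1.23 to 7.17 in the WRF libraries (median 4.103). Its difference was -1.91 (SE 0.19, limma adjusted p = 6.57e-07). Tead1, the DNA-binding partner of the Hippo pathway coactivators in the heart, ranged from 8.71 to 13.7 fpkm in the C libraries (median 11.97), 5.04 to 12.2 in the W libraries (median 11.3) and 0.527 to 3.72 in the WRF libraries (median 2.15). WRF45 and WRF44 were at the low end for these genes, with 1.25 and 0.527 fpkm of Tead1, and the highest WRF library was WRF41 for Prkaa2 and WRF50 for the other 3.

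Nebl, which encodes the thin filament and Z-disc protein nebulette, was the most abundant of the group, at 21.8 to 45.02 fpkm in the C libraries (median 33.9), 19.6 to 31.2 in the W libraries (median 26.4) and 4.61 to 13.7 in the WRF libraries (median 8.72), a log2 difference of -1.79 (SE 0.17, limma adjusted p = 4.22e-07). Hipk3 (a nuclear protein kinase) differed by -1.82 (SE 0.18, limma adjusted p = 6.95e-07), with 10.4 to 21.8 fpkm in C and W against 1.34 to 6.33 in WRF libraries. Ppip5k2, an inositol pyrophosphate kinase, was at 5.63 to 15.5 against 0.915 to 3.398 fpkm, a difference of -1.73 (SE 0.17, limma adjusted p = 6.57e-07). Cpeb4, an RNA-binding regulator of translation, was at 5.05 to 11.3 against 0.448 to 3.21 fpkm, a difference of -1.73 (SE 0.19, limma adjusted p = 1.45e-06). Lrrc58, of unclear role, was at 4.78 to 13.7 against 0.256 to 2.58 fpkm, a difference of -1.89 (SE 0.20, limma adjusted p = 1.30e-06). For each of these, as for Chrm2 below, the groups did not overlap, so that 10 of the 12 genes with the largest decrease were without overlap. Over all genes 3.37% lay wholly below. The 12 were chosen for large differences in these same libraries, so their lack of overlap is a description only. Because 1 was added before the logarithm, the differences of genes at such low fpkm are understated. Leaving out C27 and W17 left these decreases between -1.69 (Ppip5k2) and -2.06 (Prkaa2).

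**Figure D3:**
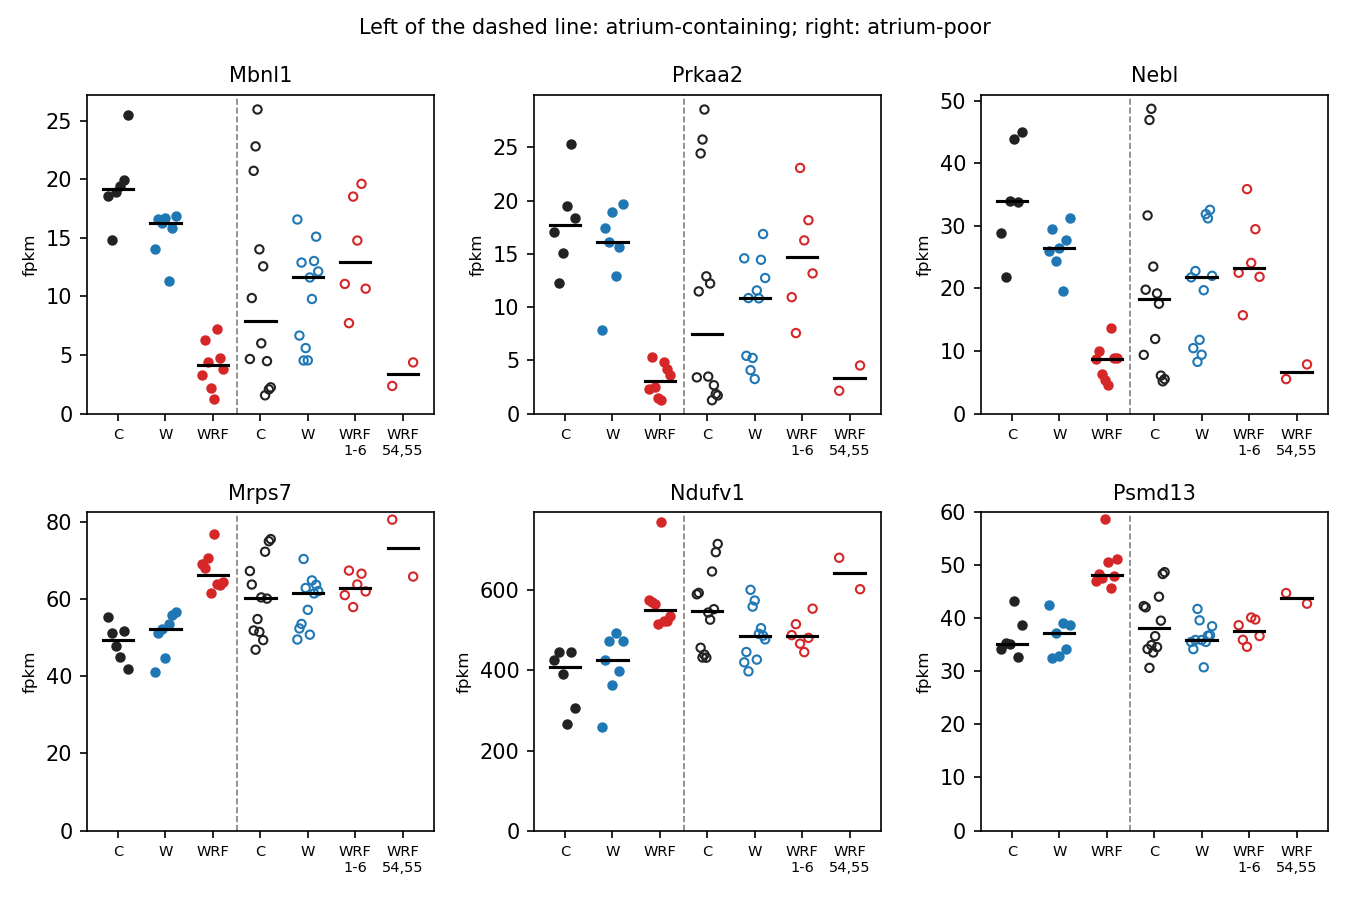
Fpkm (vertical axes) of 6 genes in each library, with C, W, and WRF of the atrium-containing libraries to the left of the dashed line and C, W, WRF1 to WRF6, and WRF54 and WRF55 of the atrium-poor libraries to the right; bars are medians. The WRF points on the left lie below every C and W point for Mbnl1, Prkaa2, and Nebl and above every one for Mrps7, Ndufv1, and Psmd13. On the right, 10 of 23 C and W libraries lie within the WRF range of Mbnl1.

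The other 2 of the 12 genes were microRNA entries, Mir568 and Mir208b. A polyA library measures RNA that overlaps these short entries and not the mature microRNA. The mature sequences are shown because these entries had the largest fitted decreases, with the seed, bases 2 to 8, in capitals (RefSeq, GRCr8):
rno-miR-568: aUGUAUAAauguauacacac
rno-miR-208b-3p: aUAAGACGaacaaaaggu
rno-miR-208b-5p: aAGCUUUUugcucgcguuau
The sequences share no seed. Mir568 was listed at 0, 32.2, 0, 19.8, 71.97, 66.8, 50.5 and 29.2 fpkm in WRF41, 42, 44, 45, 46, 50, 52, and 53, and at 23.4 to 211 in C and W libraries. Mir208b, which lies within a myosin heavy chain gene, was listed at 0, 71.8, 65.2, 44.3, 0, 14.9, 56.1 and 0 fpkm in the same order, and at 15.5 to 178 in C and W. The log2 differences were -2.31 (SE 0.74, limma adjusted p = 0.0145) and -2.15 (SE 0.83, limma adjusted p = 0.0386), but the groups overlapped and the WRF libraries included values of 0. Without C27 and W17 neither passed (adjusted p = 0.0598 and 0.113 by limma).

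The 12 genes with the largest increase included 4 genes of fat synthesis and storage. Thrsp, a regulator of lipogenesis, ranged from 0.0652 to 31.7 fpkm in the C libraries (median 6.03), 0.277 to 20.97 in the W libraries (median 1.801) and 1.18 to 609 in the WRF libraries (median 25.2). Scd, the stearoyl-CoA desaturase, ranged from 0.457 to 6.11 fpkm in the C libraries (median 1.78), 0.646 to 7.14 in the W libraries (median 1.27) and 0.686 to 547 in the WRF libraries (median 8.38). The groups overlapped, and WRF52 and WRF53 reached 609 and 185 fpkm of Thrsp and 547 and 82.1 of Scd. Fasn (fatty acid synthase) and Dgat2 (the last step of triglyceride synthesis) were also highest in WRF52, at 166 and 119 fpkm. The log2 differences were 2.10 (SE 0.84, limma adjusted p = 0.0445) for Thrsp, 2.04 (SE 0.76, limma adjusted p = 0.0322) for Scd, 1.35 (SE 0.53, limma adjusted p = 0.0397) for Fasn, and 1.12 (SE 0.46, limma adjusted p = 0.0489) for Dgat2. Without WRF52 none of the 4 passed, with differences of 1.47, 1.31, 0.80, and 0.74 (limma adjusted p = 0.107, 0.0593, 0.0604, and 0.114). Over all genes 20.6% were higher and 26.6% lower. Of the 7 fat cell markers that were measured, 2 were higher (Scd and Cfd), 1 was lower (Lpl), and 4 did not pass (list median 0.90). Without C27 and W17 0 were higher and the median was 0.33, and against C rats alone 0 were higher. Of all 10257 genes 2010 and 1424 were higher in these 2 fits. Their summed level was 170 to 1487 fpkm in WRF and 353 to 646 in C and W libraries. The hormone Adipoq, which defines fat cells, was at 180 and 49.6 fpkm in WRF52 and WRF53 and at most 27.2 in C and W libraries. Its part in these differences was not tested.

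The ventricular light chains and 3 other genes that were lowest in C27 and W17 formed a second set. Myl2 differed by 1.73 (SE 0.63, limma adjusted p = 0.0289), Myl3 by 1.69 (SE 0.54, limma adjusted p = 0.0142), and Rpl3l, a striated muscle form of a ribosomal protein, by 1.5003 (SE 0.52, limma adjusted p = 0.0231). Trim50, a ubiquitin ligase of the TRIM family, and Gpsm1, a regulator of G proteins, differed by 1.13 (SE 0.37, limma adjusted p = 0.0155) and 0.99 (SE 0.32, limma adjusted p = 0.0141). The size of these differences rested on C27 and W17. Rpl3l was at 2.25 and 1.95 fpkm there and at 57.98 to 214 in the other 19 libraries. Without these 2 libraries the difference of Myl2 was 0.36 (SE 0.16, limma adjusted p = 0.0743), that of Rpl3l 0.35 (SE 0.14, limma adjusted p = 0.053), that of Trim50 0.62 (SE 0.34, limma adjusted p = 0.149), and that of Gpsm1 0.32 (SE 0.13, limma adjusted p = 0.0547), none of which passed. Myl3 still differed, by 0.51 (SE 0.16, limma adjusted p = 0.0164).

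Acta1 and Crym passed with and without C27 and W17. Acta1, the skeletal muscle actin that the heart expresses in fetal life and under load, ranged from 30.1 to 344 fpkm in the C libraries (median 170.1), 45.5 to 429.8 in the W libraries (median 359) and 114 to 912 in the WRF libraries (median 566). WRF52 was the lowest WRF library and WRF45 the highest, and the groups overlapped. The log2 difference was 1.61 (SE 0.42, limma adjusted p = 0.00394), and 0.99 (SE 0.37, limma adjusted p = 0.039) without C27 and W17. Crym, a thyroid hormone-binding protein of the cytosol, ranged from 3.22 to 16.8 fpkm in the C libraries (median 14.2), 4.19 to 17.7 in the W libraries (median 15.4) and 15.4 to 33.5 in the WRF libraries (median 23.9), a difference of 1.12 (SE 0.21, limma adjusted p = 3.06e-04), and 0.76 (SE 0.16, limma adjusted p = 0.00162) without both. Reg3b, a secreted lectin of the regenerating family that is induced in injured tissue, had a wide spread, at 2.51 to 41.7 fpkm in the C libraries (median 19.9), 6.32 to 17.9 in the W libraries (median 10.6) and 9.51 to 69.9 in the WRF libraries (median 35.1). It differed by 1.14 (SE 0.43, limma adjusted p = 0.0323) and did not pass without C27 and W17 (adjusted p = 0.165 by limma).

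Among the atrium-containing libraries, genes of the electron transport chain were higher in WRF than in C and W rats almost throughout. Of 72 genes for oxidative phosphorylation 68 were higher and 0 lower, with a median log2 difference of 0.48 against -0.01 for all genes, of which 20.6% were higher. Ndufv1, the subunit of complex I that binds NADH, ranged from 267 to 446 fpkm in the C libraries (median 409), 259 to 493 in the W libraries (median 427) and 516 to 771 in the WRF libraries (median 550.4). The lowest WRF library exceeded the highest C or W library, and the difference was 0.65 (SE 0.0879, limma adjusted p = 1.24e-05). Ndufa9, an accessory subunit of complex I, differed by 0.62 (SE 0.0736, limma adjusted p = 3.38e-06), at 189 to 381 fpkm in C and W and 354 to 561 in WRF libraries. Uqcrc1, a core subunit of complex III, was at 254 to 589.9 against 526 to 905 fpkm, a difference of 0.69 (SE 0.10, limma adjusted p = 1.90e-05). The groups overlapped for Ndufa9 and Uqcrc1. WRF45 was the highest library for all 3. Of all 21 libraries these 3 were lowest in W17 and C27. Without both, 65 of the 72 were still higher and the list median was 0.40. Atrium-poor C and W libraries reached like levels. By the mean log2(fpkm + 1) of the list, 16 of 23 lay within the WRF range of 9.40 to 9.87.

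The 69 mitochondrial ribosomal proteins were also mostly higher. Of these 64 were higher, 0 lower, and 5 did not pass, with a median of 0.38. For 11 of them every WRF library exceeded every C and W library. Over all genes that held for 1.45%, and 20.6% were higher and 26.6% lower. Mrps7 ranged from 41.9 to 55.5 fpkm in the C libraries (median 49.5), 40.9997 to 56.7 in the W libraries (median 52.3) and 61.6 to 77.01 in the WRF libraries (median 66.3), a difference of 0.48 (SE 0.0544, limma adjusted p = 2.19e-06). Mrpl4 ranged from 35.8 to 53.04 fpkm in the C libraries (median 48.2), 36.2 to 55.3 in the W libraries (median 50.4) and 56.3 to 84.1 in the WRF libraries (median 62.3), a difference of 0.53 (SE 0.0664, limma adjusted p = 5.98e-06). In fuel use, 15 of 23 glycolysis genes were higher and 0 lower (median 0.33), among them Aldoa, the muscle aldolase, at 1143 to 1674 fpkm in C and W and 1714 to 2392 in WRF libraries (log2 difference 0.495, SE 0.0739, limma adjusted p = 3.18e-05). Of 29 fatty acid oxidation genes 13 were higher and 1 was lower (median 0.30), and without C27 and W17 8 were higher (median 0.11). The lower one was Ppara, the nuclear receptor that drives the pathway, at 3.35 to 10.1 fpkm in the C libraries (median 5.31), 1.72 to 7.33 in the W libraries (median 5.82) and 0.756 to 3.799 in the WRF libraries (median 2.24). Its difference was -0.82 (SE 0.18, limma adjusted p = 0.0011).

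Genes for making and breaking down proteins were more often higher than lower, beside 20.6% higher and 26.6% lower over all genes. Of 77 cytosolic ribosomal proteins 45 were higher, 0 were lower, and 32 did not pass (median 0.27). Against C rats alone 26 were higher and against W rats alone 8, beside 1424 and 1543 of all 10257 genes. Rps2, of the small subunit, was at 502 to 745 fpkm in C and W and 691 to 1198 in WRF libraries, a difference of 0.38 (SE 0.0875, limma adjusted p = 0.00133). Of 40 genes for ribosome biogenesis and RNA polymerase I 20 were higher and 1 lower, and of 36 translation factors 19 were higher, 5 were lower, and 12 did not pass. Of 37 proteasome subunits 26 were higher and 0 lower (median 0.24). For 11 of them every WRF library lay above every C and W library, as for 1.45% of all genes. Psmd13, of the regulatory particle, ranged from 32.8 to 43.3 fpkm in the C libraries (median 35.2), 32.5 to 42.6 in the W libraries (median 37.2) and 45.7 to 58.7 in the WRF libraries (median 48.2), a difference of 0.39 (SE 0.0569, limma adjusted p = 2.46e-05). Of 35 genes for lysosomes and autophagy 15 were higher, 3 were lower, and 17 did not pass. The protease Ctsd was at 118 to 179.7 fpkm in C and W and 179 to 212 in WRF libraries, with a difference of 0.40 (SE 0.0624, limma adjusted p = 4.38e-05). The lowest WRF library, WRF42 at 179, was below the highest C library, C27 at 179.7. Many cytosolic ribosomal proteins have near-identical copies elsewhere in the genome, so their fpkm depend on how reads were assigned.

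**Figure D4:**
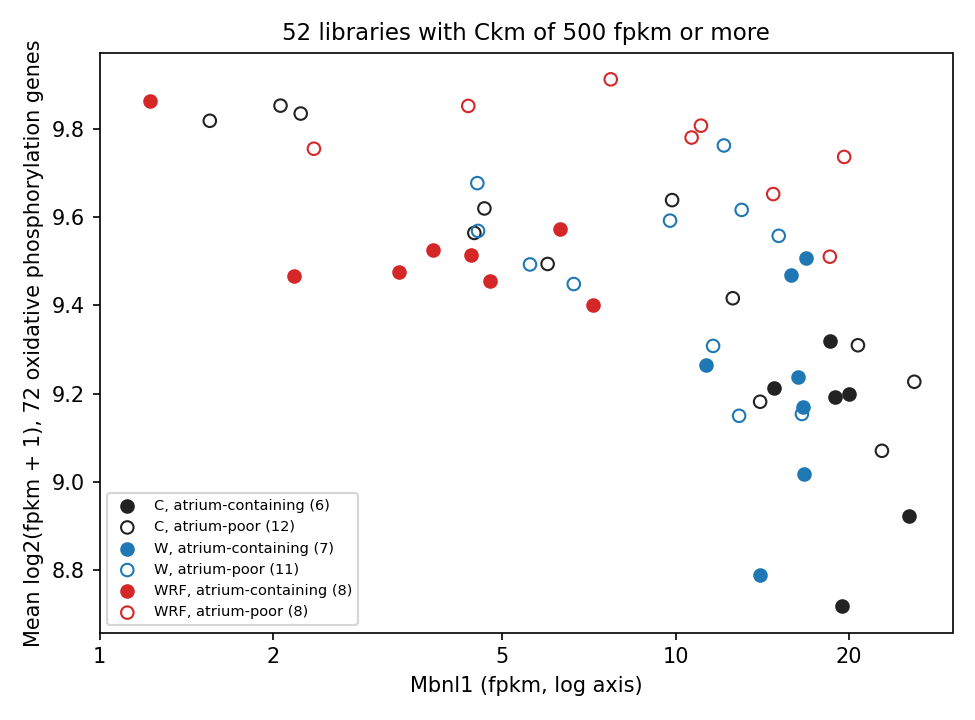
Mbnl1 in fpkm (horizontal axis, logarithmic) against the mean log2(fpkm + 1) of the 72 oxidative phosphorylation genes (vertical axis), 1 point per library with at least 500 fpkm of Ckm; filled points are atrium-containing and open points atrium-poor. The filled WRF points lie to the left of all filled C and W points, between 1.23 and 7.17 fpkm of Mbnl1. Open C and W points lie both among the filled WRF points and among the filled C and W points.

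Of 26 sarcomere genes (Myl7 left out) 12 were higher and 2 lower, with or without C27 and W17. Over all genes 20.6% were higher and 26.6% lower. Tnnc1, the calcium-binding subunit of troponin, ranged from 2852 to 4017 fpkm in the C libraries (median 3518), 3424 to 4537 in the W libraries (median 3845) and 4291 to 6993 in the WRF libraries (median 5264), a difference of 0.55 (SE 0.10, limma adjusted p = 2.09e-04). Des, the intermediate filament desmin, was at 481 to 710.0 against 632 to 956 fpkm (log2 difference 0.46, SE 0.0752, limma adjusted p = 7.29e-05). The 2 lower ones were Nebl and Xirp2, an actin-binding protein of the intercalated disc, which was at 15.6 to 37.5 against 11.9 to 19.1 fpkm (log2 difference -0.64, SE 0.12, limma adjusted p = 3.35e-04). Of 11 ventricular markers (Ckm left out) 6 were higher and 1 lower, also without C27 and W17. Against C rats alone 3 were higher, beside 1424 of all 10257 genes. Of 10 atrial markers (Myl7 left out) 0 were higher and 2 lower, near the share lower over all genes, and 1 of the 2 was Gnao1. Gnao1, an inhibitory G protein subunit, was at 4.597 to 36.5 fpkm in C and W libraries and 1.46 to 9.06 in WRF libraries, with the highest values in C27 and W17 (36.5 and 28.1). Its difference was -0.94 (SE 0.21, limma adjusted p = 0.0012), and -0.65 (SE 0.19, limma adjusted p = 0.0121) without them. The ventricular transcription factor Irx4 was near 0 in C27 and W17 (0.0376 and 0.228 fpkm) and at 1.91 to 9.45 elsewhere. Its difference was 1.03 (SE 0.27, limma adjusted p = 0.00404), and 0.60 (SE 0.22, limma adjusted p = 0.0384) without them.

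Autonomic signaling genes were more often lower than higher in WRF libraries. Of 25 genes, 12 were lower and 3 higher (median -0.30, against 26.6% of all genes lower). For 6 of them every WRF library lay below every C and W library, as for 3.37% of all genes. Chrm2, the muscarinic receptor of heart muscle, ranged from 10.9 to 36.6 fpkm in the C libraries (median 15.8), 10.5 to 17.1 in the W libraries (median 11.96) and 0.5896 to 7.02 in the WRF libraries (median 4.299). It was highest in C27, and the difference was -1.93 (SE 0.26, limma adjusted p = 1.14e-05), or -1.80 (SE 0.28, limma adjusted p = 1.46e-04) without C27 and W17. Pde3a and Pde4d, which degrade cyclic AMP, were at 7.19 to 13.5 and 3.27 to 7.58 fpkm in C and W and at 0.853 to 5.94 and 0.514 to 2.65 in WRF libraries, with differences of -1.502 (SE 0.22, limma adjusted p = 2.36e-05) and -1.14 (SE 0.16, limma adjusted p = 1.58e-05). Kcnj3, a subunit of the potassium channel that Chrm2 opens, ranged from 9.71 to 64.4 fpkm in the C libraries (median 13.3), 6.07 to 32.9 in the W libraries (median 10.8) and 1.08 to 12.1 in the WRF libraries (median 5.68). Its difference was -1.60 (SE 0.27, limma adjusted p = 1.02e-04), and -1.31 (SE 0.26, limma adjusted p = 0.00102) without C27 and W17, the 2 libraries with the most of it.

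Of 23 channel genes 8 were lower and 4 higher, beside 26.6% lower and 20.6% higher over all genes. Hcn4, the pacemaker channel, was low throughout, at 0.387 to 4.13 fpkm in the C libraries (median 3.34), 0.773 to 3.63 in the W libraries (median 2.44) and 0.163 to 1.62 in the WRF libraries (median 0.608), and differed by -1.15 (SE 0.18, limma adjusted p = 4.38e-05). Kcnip2, an auxiliary subunit of the transient outward potassium channel, was higher in WRF libraries, at 44.9 to 131 fpkm in the C libraries (median 79.2), 26.7 to 128 in the W libraries (median 94.5) and 57.3 to 168 in the WRF libraries (median 118), a difference of 0.75 (SE 0.14, limma adjusted p = 1.99e-04), and 0.59 (SE 0.13, limma adjusted p = 0.0015) without C27 and W17. Of 20 calcium-handling genes 7 were lower and 2 higher, beside the same shares. Cacna2d1, an auxiliary subunit of the L-type calcium channel, was at 3.19 to 8.25 against 0.435 to 2.11 fpkm without overlap (log2 difference -1.47, SE 0.15, limma adjusted p = 6.23e-07). Ryr2, the calcium release channel, was at 54.8 to 89.5 against 24.03 to 59.9 fpkm (log2 difference -0.80, SE 0.14, limma adjusted p = 1.15e-04), with WRF50 above the lowest of the other libraries. In the natriuretic peptide system, the clearance receptor Npr3 and the processing protease Corin were lower, with differences of -1.39 (SE 0.28, limma adjusted p = 4.44e-04) and -1.05 (SE 0.27, limma adjusted p = 0.00367), while 5 genes, Nppa among them, did not pass. Both were highest in C27 and W17, and both passed without them (limma adjusted p = 0.00558 and 0.0303).

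Of 21 transcription factors whose motifs the study considered 13 were lower and 1 was higher, beside 26.6% lower and 20.6% higher over all genes. That list was drawn from the report on these rats and is not independent evidence of its direction. Elk4, Gabpa, and Elf1, which bind ETS motifs, and Sp1 had the smallest p. Gabpa ranged from 4.48 to 6.46 fpkm in the C libraries (median 5.28), 3.86 to 5.27 in the W libraries (median 4.297) and 1.72 to 4.44 in the WRF libraries (median 3.17), a difference of -0.55 (SE 0.10, limma adjusted p = 2.29e-04). Elf1 differed by -0.84 (SE 0.16, limma adjusted p = 3.30e-04), Elk4 by -0.47 (SE 0.0871, limma adjusted p = 2.22e-04), and Sp1 by -0.47 (SE 0.0873, limma adjusted p = 2.49e-04). The groups overlapped for all 4. Foxo3, a transcription factor that is active in fasting, and Fbxo32, a ubiquitin ligase of muscle atrophy that it induces, were lower: Foxo3 was at 2.73 to 9.18 against 0.4998 to 3.61 fpkm (log2 difference -0.99, SE 0.20, limma adjusted p = 4.31e-04) and Fbxo32 at 8.602 to 28.8 against 1.86 to 12.04 (log2 difference -1.43, SE 0.25, limma adjusted p = 1.17e-04). Of 15 clock genes 1 passed, Clock itself, at 3.26 to 6.36 against 1.93 to 5.16 fpkm (log2 difference -0.67, SE 0.12, limma adjusted p = 1.43e-04). Of 19 interferon response genes 8 were lower and 0 higher, with Ifit2, an RNA-binding antiviral protein, at 6.51 to 12.2 against 3.86 to 7.21 fpkm (log2 difference -0.56, SE 0.11, limma adjusted p = 4.17e-04).

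Of 12 endothelial markers 6 were lower and 1 higher, beside 26.6% lower and 20.6% higher over all genes. The summed level of the markers, 1022 to 2942 fpkm in WRF and 765 to 2014 in C and W libraries, overlapped between the groups. The higher one was Fabp4, the most abundant of them, a lipid-binding protein that fat cells also express. Flt1, a receptor for vascular endothelial growth factor, was at 15.3 to 26.6 against 9.21 to 17.2 fpkm (log2 difference -0.59, SE 0.10, limma adjusted p = 1.12e-04). Cdh5, the cadherin of endothelial junctions, and the transcription factor Erg differed by -0.85 (SE 0.21, limma adjusted p = 0.00248) and -0.69 (SE 0.14, limma adjusted p = 5.10e-04). Abcc9, a subunit of the potassium channel of pericytes and muscle that senses ATP, was lower without overlap (15.6 to 28.3 against 3.49 to 15.4 fpkm, log2 difference -1.12, SE 0.20, limma adjusted p = 1.60e-04).

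Of 12 fibroblast markers 3 were higher, 1 was lower, and 8 did not pass, beside 20.6% higher and 26.6% lower over all genes, and summed levels overlapped (1225 to 3860 fpkm in C and W and 1907 to 3361 in WRF libraries). Col1a1, a chain of collagen I, ranged from 38.1 to 167 fpkm in the C libraries (median 83.01), 40.2 to 81.2 in the W libraries (median 61.1) and 89.9 to 190.1 in the WRF libraries (median 99.3). WRF44 was the highest library and C29 came next, and the difference was 0.60 (SE 0.21, limma adjusted p = 0.0249). The surface marker Thy1 (log2 difference 0.504, SE 0.15, limma adjusted p = 0.0108) and S100a4 (log2 difference 0.59, SE 0.18, limma adjusted p = 0.00933), a calcium-binding protein of motile cells, were also higher, and both were highest in WRF44 (5.52 and 194 fpkm). Without C27 and W17 Col1a1 and Thy1 did not pass (limma adjusted p = 0.0831 and 0.0875), and S100a4 did (0.0353). Col1a1 did not pass against C rats alone (adjusted p = 0.162) and passed against W rats alone (0.00486, both by limma), and Thy1 did not pass against C rats alone (limma adjusted p = 0.0687). Of 11 macrophage markers 2 were higher and 1 lower, near the same shares. Against C rats alone 0 were higher and 2 lower, beside 1424 and 2267 of all 10257 genes. Against W rats alone 6 were higher and 0 lower, beside 1543 and 1510. Of 9 T and NK cell markers 1 was higher, and the T cell receptor subunit Cd3e was at 0.896 to 2.96 fpkm in C and W and 1.10 to 4.75 in WRF libraries. None of 7 liver, 2 lung, and 5 red cell markers passed at the adjusted p of 0.05 in limma.

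The reference groups were also taken singly. Against C rats alone 3691 of 10257 genes passed, 1424 higher and 2267 lower. Against W rats alone 3053 of 10257 passed, 1543 higher and 1510 lower. The list counts below are to be read beside these. All 4843 genes had the same sign in both comparisons, which share the WRF libraries and of which the joint comparison is made. The oxidative phosphorylation list had 67 genes higher against C and 64 against W, and autonomic signaling had 12 and 9 genes lower. Not all lists were alike in both. The cytosolic ribosomal proteins and the macrophage markers described above differed in their counts, and of 31 matricellular and fibrosis genes 0 were higher and 2 lower against C and 8 higher and 0 lower against W. Of the 12 genes with the largest increase, Acta1 (limma adjusted p = 0.0151) and Crym passed against C alone. Myl3 and Reg3b did not (limma adjusted p = 0.0532 and 0.261), nor did Myl2, Rpl3l, Trim50, Gpsm1, and the 4 genes of fat synthesis. Against W alone Acta1 did not pass (limma adjusted p = 0.0506), nor did those 4 genes and Corin (limma adjusted p = 0.0519). In the direct test of W against C, given above, 0 genes passed. Leaving out the 5 WRF libraries numbered 41 to 46 left 1633 genes, with WRF50, WRF52, and WRF53 as the only WRF libraries. Leaving out WRF50, WRF52, and WRF53 instead gave 5174 genes. The settings differ in the number of WRF libraries, so their counts cannot be compared directly.

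The same contrast in the atrium-poor libraries, 8 WRF against 23 C and W, gave 18 genes (0.175%), all higher in WRF rats, with 1318 at an unadjusted p under 0.05. Of these 18, 10 were also higher in the atrium-containing libraries. They include Atp5f1 (entered as 2 identical rows), a subunit of ATP synthase, with a difference of 0.38 in the atrium-poor libraries and 0.20 in the atrium-containing ones. Hspe1, the mitochondrial co-chaperone, differed by 0.66 and 0.41. The list medians in the atrium-poor libraries were 0.26 for oxidative phosphorylation (1 of 72 passed), 0.16 for mitochondrial ribosomal proteins (1 of 69), and 0.08 for autonomic signaling (0 of 25). A test of the difference between both effects found 2513 genes (24.5%; limma interaction, adjusted p under 0.05), 840 with a higher and 1673 with a lower value in the atrium-containing libraries. Prkaa2, Mbnl1, and Tead1 were among the latter, with differences of -2.39, -2.04, and -2.16 (limma adjusted p = 0.00651, 0.00668, and 0.00668). Without WRF1 to WRF6, 0 genes passed this test. Only WRF54 and WRF55 were then left as atrium-poor WRF libraries, too few to show whether the effects were alike.

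The atrium-poor WRF rats were of 2 runs of numbers, and the difference between the runs was not tested. In WRF1 to WRF6, Mbnl1 was at 11.1, 7.72, 18.5, 14.8, 19.6 and 10.7 fpkm, and in WRF54 and WRF55 at 4.37 and 2.36. The atrium-poor C and W libraries ranged from 1.55 to 25.96 (median 9.86) fpkm, and 10 of 23 lay within the range of the 8 atrium-containing WRF libraries, 1.23 to 7.17. Prkaa2 was at 10.9, 7.56, 23.1, 16.3, 18.2 and 13.2 fpkm in WRF1 to WRF6 and at 4.51 and 2.14 in WRF54 and WRF55, with 9 of 23 C and W libraries inside the WRF range of 1.24 to 5.31. For each of the 10 lower genes without overlap, WRF54 and WRF55 were both within that range, 0 or 1 of WRF1 to WRF6 were, and 7 to 11 of 23 atrium-poor C and W libraries were. No atrium-containing C or W library was. Levels as low as those of WRF rats occurred in atrium-poor C and W libraries. For the higher lists, the mean log2(fpkm + 1) was compared in the same way. For oxidative phosphorylation 16 of the 23 lay within the WRF range, and for fatty acid oxidation 22. It was 12 for cytosolic and 11 for mitochondrial ribosomal proteins, 10 for glycolysis, and 5 for the proteasome. Since all 8 WRF libraries of the atrium-containing comparison came from rats numbered 41 to 53, feeding schedule and run of rat numbers cannot be told apart in this comparison.

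Against the 23 atrium-poor C and W libraries, WRF54 and WRF55 had the same sign as the atrium-containing comparison in 4187 of the 4843 genes (86.5%), and WRF1 to WRF6 in 1730 (35.7%). These are counts over genes, which are not independent, and no library is shared with the atrium-containing comparison. The first count rests on 2 libraries. For the 10 lower genes above, 7 to 11 of the 23 C and W libraries lay as low, and no such count is given for them. Whether the run of rat numbers had a part in these counts was not tested. The median of the autonomic list was -0.12 for WRF54 and WRF55 and 0.07 for WRF1 to WRF6. That of the motif transcription factors was -0.21 and 0.03. The oxidative phosphorylation list had like medians in both, 0.27 and 0.24, and the cytosolic ribosomal proteins had -0.00 and 0.29. On their own, WRF54 and WRF55 gave 1 gene that passed, Scd (log2 difference 3.07, SE 0.51, limma adjusted p = 0.0271), and WRF1 to WRF6 gave 31.

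**Figure D5:**
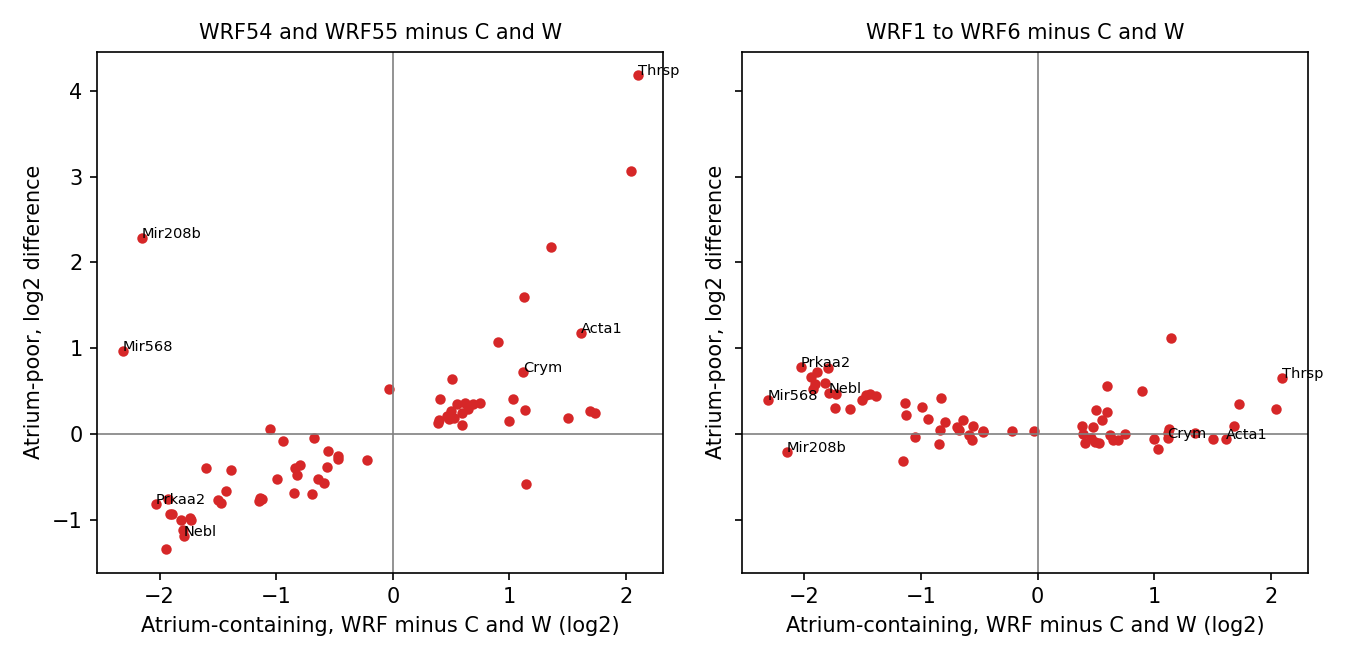
Log2 difference between WRF and the C and W libraries for 66 named genes, in the atrium-containing libraries (horizontal axes) and in the atrium-poor libraries (vertical axes), for WRF54 and WRF55 (left) and WRF1 to WRF6 (right). On the left most genes lie in the lower left and the upper right, except Mir568, Mir208b, and a few others. On the right Prkaa2, which was lower in the atrium-containing libraries, lies at 0.78.

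The promoters of 22 genes were looked up for the ETS core motif CCGGAAG, because factors that bind it were among the lower genes. They were the 10 lower genes without overlap and the 4 genes with the smallest p of oxidative phosphorylation, mitochondrial ribosomes, and the proteasome. RefSeq (GRCr8) gave 1 promoter, 250 bases before to 50 after the start, for 21 of them, and 7 held the motif on either strand, against 8.75% of the 33469 promoters in the table. None of the 4 respiratory genes was among the 7. The 8.75% covers all promoters and not only those of the 10257 measured genes, and the genes looked up were picked from these results. The shares are therefore not of like sets, and enrichment was not tested. Stretches of 30 bases follow with the motif in capitals, shown because they mark the genes that hold it, and CTTCCGG is the motif read on the other strand:
Mrps18a: acacccctgctCCGGAAGcggaagtgcaca
Mrpl4: tcattggtttgCTTCCGGagcccgctctcc
Psmd13: gcggcgcggcgCCGGAAGtgagtgagcact
Psmb4: gacgacttccgCTTCCGGtgacgggagcgc
Psmb7: ccccagctgcgCCGGAAGtgtaaattcttt
Chrm2: tgggagagaacCTTCCGGtgagggaaggga
Lrrc58: ggagcctcaggCTTCCGGctcgctacgtga
They lie at chr9:22367400-22367429 (minus strand), chr8:27815760-27815789 (plus), chr1:205394178-205394207 (plus), chr2:185134565-185134594 (minus), chr3:42827506-42827535 (minus), chr4:65982452-65982481 (plus), and chr11:76368515-76368544 (minus) of GRCr8. Psmb7 holds a second copy. Genes higher in WRF rats (the first 5) and lower (Chrm2 and Lrrc58) were both among the holders, and a match is not a binding site.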

How the data were processed

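Heart polyA RNA of 54 rats was sequenced from directional libraries. The authors aligned reads to rn6 with TopHat2, estimated FPKM values with Cufflinks, and deposited the FPKM of 10257 genes above 1 fpkm in at least 18 rats; versions are not given in the sources used here. FPKM values hold no counts, and the sequencing depth that the study reports was not used. Of the rows, 259 repeat all values of another, which leaves 9998. All 54 columns were mapped and 0 were left out; groups came from the rat names.

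Libraries were selected by Myl7 and Ckm, and the members and lists were chosen with earlier results of these data known. Log2(fpkm + 1) was fitted with limma 3.58.1 (R 4.3.3), with a trend in the variance, log2 Myl7 as covariate, and Benjamini-Hochberg adjustment over all genes (threshold 0.05). The study's rank tests hold no covariate, and the Mann-Whitney test was an alternative. Named genes were the 12 higher and 12 lower called genes with the largest log2 difference, a mean of at least 5 fpkm, and a proper gene symbol (no placeholder names), up to 4 members of each of 46 lists (17 of cell type markers and 29 pathways) by smallest p, markers, and genes the study names. Atp5f1, outside the rule, was named after its values were seen. Alternatives without C27 and W17, without WRF1 to WRF6, without WRF54 and WRF55, and with the rat number as a block were chosen after seeing the data. For 12 WRF rats, 8 of them used here, the labels give 2 hours, and both were tried. Where the study names stained hearts, it gives WRF42, WRF46, and WRF51 the hour of the title. Plots used Python 3.11.15 and matplotlib 3.10.9.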

Additional observations from a re-analysis of the deposited data

Results flagged for a closer look

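Some libraries lay far from the others of their group for a named gene (gap to the nearest library over the range of the group, at the 95% critical value of Dixon). This held for 36 values over 198 groups of 66 genes. The critical value gives about 1 in 20 groups only for normal and independent values. Here some genes were strongly skewed and the same few libraries recurred across genes, so that rate does not apply. W17 was low for Myl3 (94.3 fpkm), Rpl3l (1.95), Crym (4.19), Gpsm1 (6.55), Uqcrc1 (254), and Kcnip2 (26.7), and high for Kcnj3 (32.9), Npr3 (64.1), Corin (44.7), Gnao1 (28.1), Nppa (30522), and Sln (6305). C27 was high for Kcnj3 (64.4), Gnao1 (36.5), Nppa (28189), Sln (7371), Mir208b (178), and Ctsd (179.7). WRF52 was high for Thrsp (609), Scd (547), and Fasn (166). WRF45 was high for Ndufa9 (561), Ndufv1 (771), Uqcrc1 (905), and Mrpl4 (84.1). WRF44 was high for Psmd13 (58.7), Col1a1 (190.1), S100a4 (194), and Sln (7805). Single values were Thrsp in W21 (20.97), Dgat2 in C29 (20.6), Corin and Clock in WRF50 (27.2 and 5.16), Flt1 and Cdh5 in C17 (26.6 and 57.3), and Ppara in C28 (10.1), all in fpkm and all high.

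The WRF effect of 2513 genes differed between the atrium-containing and the atrium-poor libraries (limma interaction, adjusted p under 0.05), 38 named genes included. On the log2 scale, as the effect in atrium-containing minus that in atrium-poor libraries, the largest were those of Prkaa2 (-2.39), Tead1 (-2.16), Lrrc58 (-2.16), Mbnl1 (-2.04), Tbx20 (-2.03), Hipk3 (-1.98), Chrm2 (-1.94), Nebl (-1.81), Cpeb4 (-1.78), and Ppip5k2 (-1.64). Signaling and channel genes followed, with Pde3a (-1.58), Cacna2d1 (-1.57), Kcnj3 (-1.41), Npr3 (-1.32), Pde4d (-1.29), Abcc9 (-1.08), and Ryr2 (-0.76). Regulators were Fbxo32 (-1.54), Ppara (-1.10), Foxo3 (-1.04), Elf1 (-0.72), Clock (-0.65), Gabpa (-0.54), Elk4 (-0.38), and Sp1 (-0.38), with Xirp2 (-0.65) and Ifit2 (-0.47) beside them. Values above 0 were those of Crym (0.85), Uqcrc1 (0.54), Ndufv1 (0.54), Kcnip2 (0.49), Mrpl4 (0.47), Ndufa9 (0.43), Aldoa (0.42), Des (0.40), Ctsd (0.39), Psmd13 (0.36), and Mrps7 (0.30). Without WRF1 to WRF6 no gene passed this test, which then rested on WRF54 and WRF55 as the only atrium-poor WRF libraries and could detect little.

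Both WRF libraries with low Ckm held products of other tissues. Ager, a marker of lung epithelium, was at 1419 fpkm in WRF51, and Cd3e, of T cells, at 106 in WRF62.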

How the results depend on the processing

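The count of 4843 genes ran from 3774 (without WRF45) to 5044 when each library was left out, with 1612 to 2211 higher and 2162 to 3000 lower. It was 3053 (1510 lower) with W alone as reference and 1633 (579 higher, 1054 lower) without WRF41 to WRF46, and 1945 genes were higher and 1315 lower among those with a mean of at least 5 fpkm. Higher genes also outnumbered lower ones with median-of-ratios scaling (2776 and 2676) and in the Mann-Whitney test (2132 and 2080 of 4212). The same held at a Myl7 limit of 50 fpkm (2580 and 2508) and with W alone as reference (1543 and 1510). As reported there were 2114 higher and 2729 lower, so which direction was more frequent depended on the setting. In the atrium-poor libraries 18 genes became 103 without the Myl7 term, 4 with median-of-ratios scaling, 55 at a mean of at least 5 fpkm, 43 with the hour added, 1 without WRF1 to WRF6, and 31 without WRF54 and WRF55. The 2513 genes with a different effect became 1466 at a mean of at least 5 fpkm, and 1087 (without WRF45) to 2998 when each library was left out. They became 0 without WRF1 to WRF6, when only WRF54 and WRF55 were left as atrium-poor WRF libraries. The causes were not tested. Over 66 genes and all settings, 2368 values kept direction and call, 180 kept direction but not the call, and 15 turned, all of Nppa and Sln, from below to above 0. With the mean of the atrial list in place of Myl7 they were 0.35 and 0.54, and passed. That mean includes both genes, so each was fitted partly against itself. The other turned values did not pass. Nppa and Sln were 0.70 and 0.89 without the Myl7 term and in the Mann-Whitney test and 0.14 and 0.15 with array weights. Sln was 0.0247 with scaling, 0.0417 with W alone, 0.22 without WRF41 to WRF46, 0.0503 without C27 and W17, and -0.0905 to 0.0606 when each library was left out. Dgat2 lost its call in 25 settings, Thrsp in 20, and Fasn in 19. Most calls were lost without WRF41 to WRF46 (21 genes), against 8 genes without WRF50 to WRF53. Neither read counts nor the depth that the study reports were used, so limits set by depth were not examined.

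No paired analysis was possible for WRF in the atrium-containing libraries because no rat number was shared there with C or W. For W against C, which share numbers 17 and 22 (correlations of -0.43 and 0.12), 0 genes passed with the rat number as a replicate block, as without it. In the atrium-poor libraries W and WRF shared numbers 1 and 5 (correlations of 0.40 and 0.21) and C and W shared 6 numbers (-0.20 to 0.53). The correlation that limma estimated for the replicate block was 0.22, and 20 genes passed with the block against 18 without it. Whether a shared number pairs rats is not given in the sources used here. Settings that leave out WRF1 to WRF6 or W33 to W38 could not be run in the atrium-containing comparison, which holds none of these rats.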

Other observations

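Other gene groups were measured in the atrium-containing libraries. Of 49 spliceosome genes 17 were higher in WRF rats and 7 lower, and of 32 genes of DNA replication and the cell cycle 6 were higher and 3 lower. Of 27 collagen genes 5 were higher and 1 lower, and of 31 matricellular and fibrosis genes 5 were higher and 2 lower. Against C rats alone 1 collagen gene and 0 matricellular genes were higher, and against W rats alone 5 and 8. Of all 10257 genes 1424 were higher against C and 1543 against W. Of 10 S100 genes 4 were higher and 0 lower. Of 30 genes for chaperones and stress of the endoplasmic reticulum 5 were higher and 5 lower, of 17 heat shock genes 5 were higher and 2 lower, and of 18 chemokines 2 were higher and 1 lower. Of 18 immediate early genes 1 was higher and 1 lower, and of 7 genes of antigen presentation 1 was higher. Among markers, 3 of 8 mesothelial, 3 of 4 conduction system, 2 of 10 smooth muscle, and 1 of 6 Schwann cell and neuron genes were lower, and 1 of 2 B cell and 1 of 3 skeletal muscle genes were higher. Of 5 neutrophil and mast cell genes 1 was higher and 1 lower. All calls are limma adjusted p under 0.05, beside 20.6% higher and 26.6% lower over all genes.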
